A study of Homo sapiens with 12 samples.

Results

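The mitochondrial ribosomal protein genes, named MRPL for the large and MRPS for the small subunit, were followed in HaCaT cells, a human keratinocyte line that grows without limit. They were taken from the count table as every row whose symbol is MRPL or MRPS followed by a number and, where present, the letter A, B or C, with pseudogene symbols left out. This gave 77 rows, with 76 symbols, of 16271 rows in the table. Total RNA had been sequenced from 12 libraries, 3 in each of 4 groups. The groups were VDR KO cells given 1,25(OH)2D3 for 8 h, VDR KO cells without it, wild type cells given 1,25(OH)2D3 for 8 h, and wild type cells without it. VDR encodes the nuclear receptor of 1,25(OH)2D3, the hormone form of vitamin D, and all groups grew in DMEM with 10% serum. The sources used here do not give the hormone's dose, a vehicle, the edit made in VDR or how many clones the knockout cells come from, so genotype and clone cannot be told apart. The labels place the replicates on a 6-well plate and name no separate cultures beyond that, so a p-value here measures how far these libraries scatter, which may be technical.

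Mitochondria keep their own ribosomes, which translate the few messenger RNAs of the mitochondrial genome into core subunits of the respiratory chain and the ATP synthase. The ribosomal RNAs of these ribosomes come from the mitochondrial genome, while all of their proteins are encoded in the nucleus, made in the cytosol and imported. Many of the proteins have a bacterial counterpart and others exist only in mitochondria. Inherited defects of several of these proteins impair respiration, and in the epidermis mitochondrial function is known to take part in keratinocyte differentiation.

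Of the 77 rows, 49 belong to the large subunit, 30 of them with a bacterial counterpart by the structure-based names and 19 specific to mitochondria. The small subunit has 27 rows, 17 with a counterpart and 10 specific to mitochondria. The structure-based names class MRPS18A and MRPS18B as specific to mitochondria, although both are homologues of a bacterial protein. MRPS30 and MRPS18A were counted with the large subunit, where structures place them despite their names. MRPS36, now KGD4, was kept because the symbol rule takes it, but it encodes a component of the 2-oxoglutarate dehydrogenase complex and was put in neither subunit. The second row named MRPS17 is a readthrough gene. Positions in GENCODE v29 on GRCh38 were found for 75 rows, on 21 chromosomes, and 38 of these overlap another counted gene on either strand. Whether counting used strand is not stated in the labels, so reads of such neighbours cannot be told apart. The counts of MRPS6 equal those of SLC5A3, those of the MRPS17 readthrough equal those of ZNF713, and those of MRPL12 equal those of SLC25A10, in every library.

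The promoters of 6 members show the sequence around the start of the genes on which the results turn. RefSeq promoter windows on GRCh38.p14 were matched for 68 of the 76 symbols, and not for MRPL2, MRPL35, MRPL15, MRPS28, MRPL10, MRPL13, MRPL21 and MRPL23. Each window runs from 250 bases before to 30 bases after the annotated start, 280 bases in all, 5′ to 3′ on the gene's strand. MRPL1, MRPL48, MRPL42 and MRPL47 are shown because they had the largest falls with hormone in wild type cells among members with a window and a motif. MRPS14 and MRPS26 are shown as members with the largest rise and the largest fall in untreated VDR KO cells. Capitals mark exact matches, on either strand, to motifs known as sites of ETS factors such as GABP, CCGGAAG, or of YY1, ATGGCGG, so that CTTCCGG and CCGCCAT are the same motifs read on the other strand.
MRPL1, chr4:77862580-77862859, plus strand: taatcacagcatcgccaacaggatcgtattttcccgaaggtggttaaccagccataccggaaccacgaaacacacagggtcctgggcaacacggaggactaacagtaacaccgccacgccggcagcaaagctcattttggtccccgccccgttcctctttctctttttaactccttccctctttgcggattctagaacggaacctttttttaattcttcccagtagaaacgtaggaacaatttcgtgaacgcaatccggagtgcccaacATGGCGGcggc
MRPL48, chr11:73787624-73787903, plus strand: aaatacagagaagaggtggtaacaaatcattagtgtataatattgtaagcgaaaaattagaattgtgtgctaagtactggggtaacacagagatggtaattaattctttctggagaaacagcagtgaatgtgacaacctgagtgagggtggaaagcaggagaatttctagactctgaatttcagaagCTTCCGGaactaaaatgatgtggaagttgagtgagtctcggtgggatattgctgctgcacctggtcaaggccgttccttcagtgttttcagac
MRPL42, chr12:93467264-93467543, plus strand: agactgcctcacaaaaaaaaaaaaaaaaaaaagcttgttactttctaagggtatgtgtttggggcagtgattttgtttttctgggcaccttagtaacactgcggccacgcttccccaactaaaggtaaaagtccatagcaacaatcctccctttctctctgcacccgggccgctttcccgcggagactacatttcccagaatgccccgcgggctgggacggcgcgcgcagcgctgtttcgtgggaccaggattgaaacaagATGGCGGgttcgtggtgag
MRPL47, chr3:179604609-179604888, minus strand: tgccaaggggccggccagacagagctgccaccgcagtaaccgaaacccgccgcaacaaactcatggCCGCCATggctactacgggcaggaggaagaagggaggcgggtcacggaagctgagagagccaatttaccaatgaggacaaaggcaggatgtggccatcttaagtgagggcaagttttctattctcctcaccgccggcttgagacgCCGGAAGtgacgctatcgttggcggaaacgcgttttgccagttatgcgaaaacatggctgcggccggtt
MRPS14, chr1:175023396-175023675, minus strand: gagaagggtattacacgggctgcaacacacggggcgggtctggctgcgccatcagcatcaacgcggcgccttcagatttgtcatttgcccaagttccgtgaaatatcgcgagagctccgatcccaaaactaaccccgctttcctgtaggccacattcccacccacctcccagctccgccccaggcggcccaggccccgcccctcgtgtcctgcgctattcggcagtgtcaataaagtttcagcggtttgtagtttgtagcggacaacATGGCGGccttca
MRPS26, chr20:3045802-3046081, plus strand: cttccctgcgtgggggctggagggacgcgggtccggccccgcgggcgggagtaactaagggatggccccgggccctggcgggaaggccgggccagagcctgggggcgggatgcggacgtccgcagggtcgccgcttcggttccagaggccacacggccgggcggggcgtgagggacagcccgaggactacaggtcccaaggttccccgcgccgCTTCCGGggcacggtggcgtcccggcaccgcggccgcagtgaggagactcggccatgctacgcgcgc

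The ETS motif was in 28 of 68 member windows (41.2%), against 10.3% of all 27305 promoters of the same length and 13.9% of the 15843 promoters of protein-coding genes. The YY1 motif was in 17 of 68 (25.0%), against 4.47% of all promoters and 5.68% of those of protein-coding genes. In MRPL1, MRPL42 and MRPS14 the match to the YY1 motif lies just after the start, where it includes an ATG. The motif of NRF1, GCATGCG, was in 7 windows (10.3%), against 4.01% of all promoters and 4.97% of those of protein-coding genes. The E-box CACGTG was also in 7 (10.3%), against 7.14% and 8.62%. The 2 motifs marked in the window of MRPL47 do not overlap. Such a match is a run of letters and not a measured binding site.

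The libraries held 11.49 to 15.99 M counts each (M, 1e6). Spearman's rho was taken across all 16271 rows of the table, which are not independent replicates. It was 0.988 and 0.987 between untreated wild type replicate 3 and the other libraries of its group. Between all other pairs within a group it was 0.993 to 0.996. Untreated wild type replicate 3 thus stood apart from its group, and some of the calls that change without it are given beside the results below. VDR RNA was present in all 12 libraries, at 82.8 ± 3.02 counts per 1e6 counts of the library (CPM) in treated and 77.6 ± 4.07 CPM in untreated VDR KO cells (SD, n = 3 each). In wild type cells it was at 70.9 ± 3.61 CPM with hormone and 103.3 ± 3.81 CPM without. CYP24A1, the main hormone-induced target of the receptor, was at 12.2 ± 0.23 CPM in treated and 16.9 ± 4.82 CPM in untreated VDR KO cells, and at 1676 ± 61.0 CPM in treated and 48.0 ± 2.87 CPM in untreated wild type cells. All 12 keratinocyte markers of a fixed list were in the table. Their summed level was 1536 to 1690 CPM in treated and 1704 to 1747 CPM in untreated VDR KO libraries, and 3381 to 3476 CPM in treated and 3397 to 3949 CPM in untreated wild type libraries. Of the leukocyte markers PTPRC, CD3E, CD79A and LYZ, 0 were in the table. Of 6 fibroblast markers 3 were in it, summing to 1.96 to 6.41 CPM in treated and 4.19 to 4.62 CPM in untreated VDR KO libraries, and to 3.90 to 13.1 CPM in treated and 4.20 to 20.6 CPM in untreated wild type libraries. PMEL, the only 1 of 5 melanocyte markers in the table, was at 1.56 CPM or less in every library. CDH5, the only 1 of 4 endothelial markers in the table, was at 3.76 to 4.12 CPM in treated and 4.32 to 5.40 CPM in untreated VDR KO libraries, and at 7.58 to 8.19 CPM in treated and 2.62 to 5.95 CPM in untreated wild type libraries, a rise with hormone that passed (log2 fold change 0.82). The part of such cells in the results was not tested.

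All 77 rows passed the filter on low counts and were tested. Their mean level over the 12 libraries ran from 8.50 CPM for the MRPS17 readthrough to 218.2 CPM for MRPL3, with a median of 48.8 CPM, against 37.9 CPM over the 14676 genes tested. The lowest count of any member in any library was 82. Per kilobase (kb) of annotated exon, the highest levels were those of MRPS26 (87.7 CPM per kb), MRPL12 (86.1) and MRPL3 (80.4). MRPS26 is a protein specific to the mitochondrial small subunit, MRPL12 forms the stalk to which translation factors bind, and MRPL3 lies near the site where peptide bonds are made. The lowest levels per kb were those of MRPL35 (3.91 CPM per kb), MRPL42 (4.03) and MRPL10 (4.11), the last of which anchors MRPL12 to the ribosome. MRPL42 has 16393 bp of annotated exon, which lowers its value per kb. The median coefficient of variation within a group was 5.89%.

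In wild type cells treated with 1,25(OH)2D3, 24 of the 77 rows fell and 0 rose (edgeR quasi-likelihood test with Benjamini-Hochberg adjustment over all genes tested, adjusted p below 0.05). Of all genes tested, 13% fell and 11.5% rose, so the members fell in a larger share (31.2%) and none passed upwards. Their median log2 fold change was -0.10, against -0.005 over all genes tested. The 3 treated libraries lay below the 3 untreated ones for 25 members and above them for 3, against 19.4% and 19.9% of all genes. By an unadjusted p under 0.05, 31 members differed (40.3%), where 36.9% of all genes did. DESeq2 called 23 lower and 0 higher, against 13% and 11.2% of all genes, and limma on log2(CPM + 1) called 24 lower and 0 higher, against 12.2% of all genes each way.

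The falls came from both subunits. Of the 49 large subunit rows 17 fell, of the 27 small subunit rows 6 fell, and MRPS36 fell as well. By the structure-based names, proteins with a bacterial counterpart fell in 14 of 47 rows and those specific to mitochondria in 9 of 29. MRPS18A and MRPS18B, which fell, are counted among the latter.

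MRPL13, a large subunit protein with a bacterial counterpart, had the largest fall. It stood at 19.6, 21.3 and 18.5 CPM in treated wild type libraries, against 31.8, 29.3 and 40.4 CPM in untreated ones. All treated values lay below all untreated values, and the highest untreated value was that of replicate 3 (log2 fold change -0.77 ± 0.11 SE, adjusted p = 0.000129 by edgeR). MRPL1, which forms the stalk near the exit site for transfer RNA, stood at 82.7, 82.7 and 76.3 CPM in treated wild type libraries, against 109, 106 and 149 CPM in untreated ones. The groups did not overlap (-0.59 ± 0.10, adjusted p = 0.000872 by edgeR). MRPL48, a mitochondria-specific protein of the central protuberance of the large subunit, stood at 45.0, 47.4 and 47.0 CPM in treated wild type libraries, against 65.1, 63.6 and 79.8 CPM in untreated ones. It too was lower in every treated library (-0.58 ± 0.08, adjusted p = 0.00022 by edgeR).

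MRPS27, a small subunit protein with pentatricopeptide repeats, a fold that binds RNA, was at 85.5, 83.0 and 82.1 CPM in treated wild type libraries, against 110.2, 111 and 148 CPM in untreated ones. Again no treated library reached the lowest untreated one (-0.56 ± 0.10, adjusted p = 0.00115 by edgeR). MRPL42, a mitochondria-specific protein, was at 46.6, 58.7 and 37.5 CPM in treated wild type libraries, against 69.6, 63.7 and 76.3 CPM in untreated ones. Its treated libraries were the most scattered of these genes, and its groups did not overlap (-0.55 ± 0.13, adjusted p = 0.00608 by edgeR). MRPL47, whose bacterial counterpart lies at the exit of the peptide tunnel, was at 31.3, 28.9 and 28.8 CPM in treated wild type libraries, against 45.3, 37.3 and 45.6 CPM in untreated ones. The groups were separate (-0.53 ± 0.09, adjusted p = 0.000486 by edgeR).

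**Figure D1:**
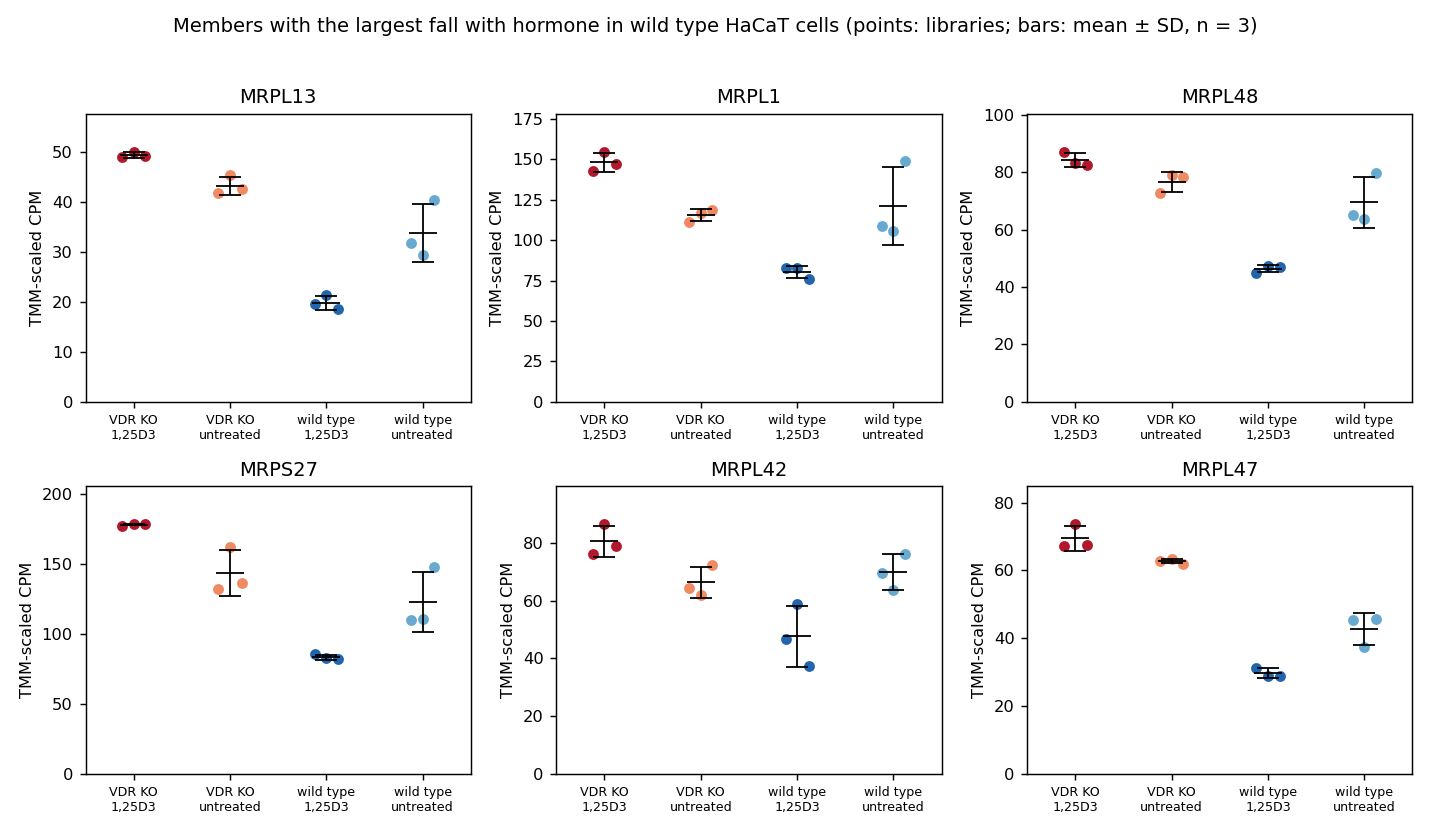
TMM-scaled CPM (y axis, from 0) of the 6 members with the largest fall with hormone in wild type cells, by group (x axis). Each point is a library and bars give mean ± SD (n = 3); the treated wild type libraries are the lowest of the 4 groups for each gene, and untreated wild type replicate 3 is the highest of its group for each.

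Without untreated wild type replicate 3, 26 members fell and 0 rose, where 12.2% of all genes fell and 10.9% rose. Of the 24 that fell with all libraries 21 were among them, while MRPL39, MRPL45 and MRPS22 no longer passed (log2 fold changes -0.23, -0.18 and -0.25). MRPL20, MRPL51, MRPS23, MRPS24 and MRPS7 fell in that fit and not with all libraries. The 6 largest fallers still passed, each with a smaller change. MRPL13 then had a log2 fold change of -0.62, MRPL42 -0.48, MRPL47 -0.47, MRPL48 -0.46, MRPL1 -0.41 and MRPS27 -0.40. For MRPL42 the adjusted p by edgeR was then 0.0493. The other members that fell were MRPL30, MRPS18A, MRPL54, MRPL21, MRPS18C, MRPS36, MRPS10, MRPL15, MRPL19, MRPL23, MRPS11, MRPS18B, MRPL27, MRPS22, MRPL3, MRPL45, MRPL39 and MRPL14, with log2 fold changes between -0.47 and -0.21. Among them MRPL3, the most abundant member, was at 187, 184 and 196 CPM in treated wild type libraries, against 221, 236 and 226 CPM in untreated ones. This is a small fall beside a small spread (-0.27 ± 0.07, adjusted p = 0.00794 by edgeR). MRPL45, which tethers the ribosome to the inner membrane, had -0.25. It also did not pass without treated wild type replicate 1 (-0.21) or 3 (-0.23). Among the 53 rows that did not pass, log2 fold changes ran from -0.31 for MRPS24 to 0.22 for MRPS6, whose counts equal those of SLC5A3.

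MRPS18A, MRPS18B and MRPS18C are 3 homologues of a single bacterial protein, the first in the large and the others in the small subunit. All 3 fell with hormone in wild type cells. MRPS18A was at 42.3, 46.6 and 41.7 CPM in treated wild type libraries, against 57.6, 62.6 and 59.2 CPM in untreated ones (-0.46 ± 0.08, adjusted p = 0.000595 by edgeR). MRPS18B was at 26.9, 28.8 and 21.5 CPM in treated wild type libraries, against 31.6, 32.4 and 32.5 CPM in untreated ones (-0.33 ± 0.10, adjusted p = 0.0269 by edgeR). MRPS18C was at 39.3, 40.3 and 40.1 CPM in treated wild type libraries, against 52.0, 48.6 and 55.8 CPM in untreated ones (-0.39 ± 0.07, adjusted p = 0.00133 by edgeR). In each case the groups did not overlap. MRPS18B did not pass without treated wild type replicate 3 (-0.20) or untreated wild type replicate 1 (-0.33). In VDR KO cells none of the 3 passed, with log2 fold changes of 0.18, 0.17 and 0.15.

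Promoter motifs were split by this response as a description. Of the 20 fallen members with a window, 10 held the ETS motif and 6 the YY1 motif. Of the 48 that did not pass, 18 held the ETS motif and 11 the YY1 motif.

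With hormone in VDR KO cells, 2 of the 77 rows fell and 0 rose, where 1.64% of all genes tested fell and 0.913% rose, and the members' median log2 fold change was -0.03. The 3 treated libraries nevertheless lay below the 3 untreated ones for 17 members and above them for 16, against 15.9% and 15.7% of all genes. MRPL34, a small protein of the large subunit with a bacterial counterpart, was at 20.9, 18.3 and 19.2 CPM in treated VDR KO libraries, against 27.8, 26.0 and 25.8 CPM in untreated ones. The groups did not overlap (-0.45 ± 0.10, adjusted p = 0.0356 by edgeR). MRPL9, also a large subunit protein with a counterpart, was at 25.5, 23.6 and 24.5 CPM in treated VDR KO libraries, against 32.7, 30.8 and 31.4 CPM in untreated ones, again without overlap (-0.37 ± 0.09, adjusted p = 0.0425 by edgeR). MRPL34 overlaps ABHD8 and MRPL9 overlaps OAZ3 on the opposite strand. By an unadjusted p under 0.05, 17 members differed (22.1%), where 21.3% of all genes did. DESeq2 called 2 lower and 2 higher (2.60% each), where 4.18% of the genes to which it gave an adjusted p were lower and 3.28% higher.

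The calls in VDR KO cells sit at the edge of the threshold. Without any 1 of the 3 treated wild type or the 6 VDR KO libraries, 0 members fell and 0 rose. Without untreated wild type replicate 3, 13 fell (16.9%) and 4 rose (5.19%), where 9.06% of all genes fell and 6.93% rose. In a fit of the VDR KO libraries alone 9 fell (11.7%) and 5 rose (6.49%), where 6.55% of all genes fell and 5.79% rose. MRPL1 was among those that rose in both of these fits.

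The difference of the responses, VDR KO minus wild type, was tested directly. It was positive for 22 members and negative for 5, where 13.8% and 12.5% of all genes tested passed in these directions (edgeR, adjusted p below 0.05). The members' median difference was 0.09 on the log2 scale, against -0.01 over all genes tested. The difference contains the wild type response, so members that fell there tend to a positive difference by construction. Of the 24 members that fell with hormone in wild type cells, 21 had a positive difference that passed and 3 did not pass. These 3 were MRPL54, MRPS36 and MRPL14, and this count is a description. Without untreated wild type replicate 3, the differences of MRPS36 (0.40) and MRPL14 (0.26) passed. MRPS9 had a positive difference that passed, while its hormone response passed in neither genotype.

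MRPL13 had the largest difference (0.96 ± 0.14, adjusted p = 0.000301 by edgeR). It stood in VDR KO cells at 49.0, 50.1 and 49.2 CPM with hormone, against 41.9, 45.3 and 42.7 CPM without, a change that did not pass by itself (0.19 ± 0.10, adjusted p = 0.273 by edgeR). MRPL1 followed (0.95 ± 0.15, adjusted p = 0.000371 by edgeR), with 143, 155 and 147 CPM in treated VDR KO libraries, against 111, 117 and 119 CPM in untreated ones. Those groups did not overlap, yet the change did not pass (0.36 ± 0.10, adjusted p = 0.066 by edgeR). MRPS27 was at 178, 179 and 179 CPM in treated VDR KO libraries, against 132, 163 and 136 CPM in untreated ones, and its difference of responses was 0.87 ± 0.14 (adjusted p = 0.000574 by edgeR). For MRPL42 the difference was 0.84 ± 0.18 (adjusted p = 0.00378 by edgeR).

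The negative differences were those of MRPL34 (-0.53 ± 0.14, adjusted p = 0.0125 by edgeR), MRPL55 (-0.49 ± 0.14), MRPL9 (-0.46 ± 0.12), MRPL41 (-0.45 ± 0.16) and MRPL38 (-0.39). All 5 are large subunit proteins. MRPL55 was at 27.8, 27.7 and 32.3 CPM in treated VDR KO libraries, against 34.5, 36.2 and 37.6 CPM in untreated ones. In wild type cells it was at 36.1, 38.2 and 36.8 CPM with hormone, against 36.2, 34.2 and 27.5 CPM without, where untreated replicate 3 was the low one. With the trend in GC content removed, the differences of MRPL38 (-0.10), MRPL41 (-0.03) and MRPL55 (-0.29) did not pass. MRPL38 also did not pass without untreated wild type replicate 3 (-0.34). The count of 5 became 8 without untreated wild type replicate 1 or 2. It became 3 without treated wild type replicate 3, untreated VDR KO replicate 1 or 2, or treated VDR KO replicate 1 or 2. Over the 12 fits that each leave out 1 library, 8.92% to 14.1% of all genes had a negative difference.

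Across the 77 members, the log2 responses in VDR KO and in wild type cells, which share no library, had a Pearson's r of -0.63 and a Spearman's rho of -0.62, and 28 members had the same sign in both. Across all 14676 genes tested, r was -0.31 and rho -0.37. Without untreated wild type replicate 3, the members' r was -0.40 and rho -0.40. Members are not independent replicates, and both responses also moved with GC content across members, with a rho of -0.39 in VDR KO and 0.41 in wild type cells (75 members with a value). Without that library rho in wild type cells was 0.26.

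**Figure D2:**
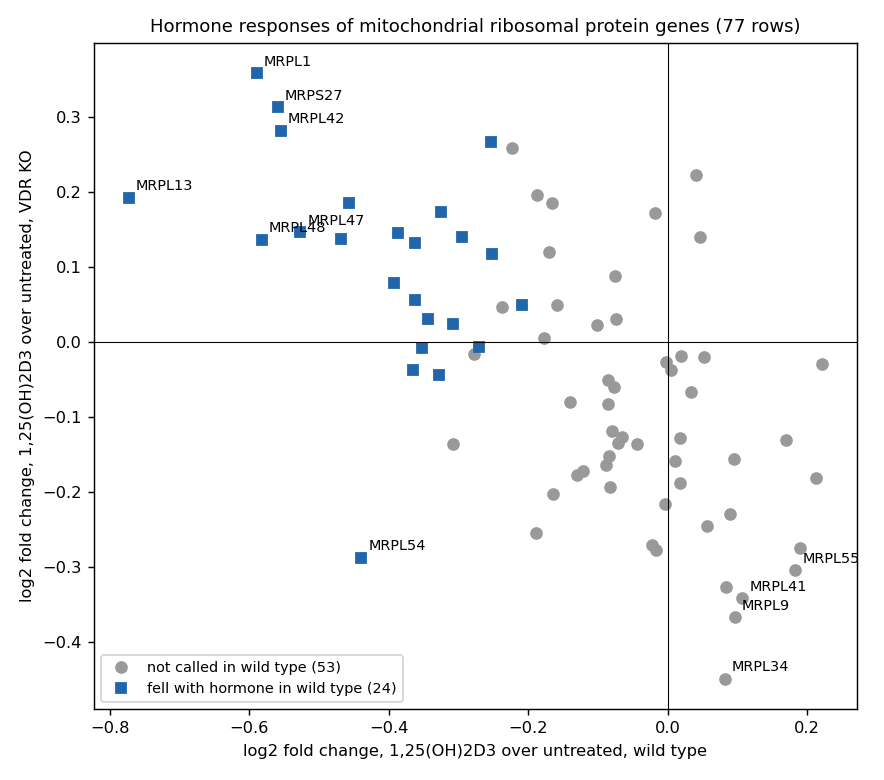
Log2 fold change with 1,25(OH)2D3 in VDR KO cells (y axis) against that in wild type cells (x axis), 1 point per row. The 24 members that fell in wild type cells (squares) lie left of 0, most of them above 0 in VDR KO cells, and MRPL34 and MRPL9, which fell in VDR KO cells, lie at the bottom right.

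Summed over both subunits, the members stood at 4304 ± 92.6 CPM in treated and 4755 ± 121 CPM in untreated wild type cells (SD, n = 3 each), a difference of -9.48% with hormone and no overlap. Without untreated wild type replicate 3 it was -10.8%. The sum in VDR KO cells was 4631 ± 128 CPM with hormone and 4626 ± 62.7 CPM without, a difference of 0.10%, and the libraries overlapped. In treated wild type cells the large subunit sum fell by 11.2% and the small subunit sum fell by 6.22%. The ratio of the large to the small subunit sum was 1.74 in treated and 1.78 in untreated VDR KO cells, and 1.79 in treated and 1.89 in untreated wild type cells. These sums were not tested, since the members were chosen with earlier results known. CPM are shares of a library, so a change in the total RNA of a cell cannot be seen in them.

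**Figure D3:**
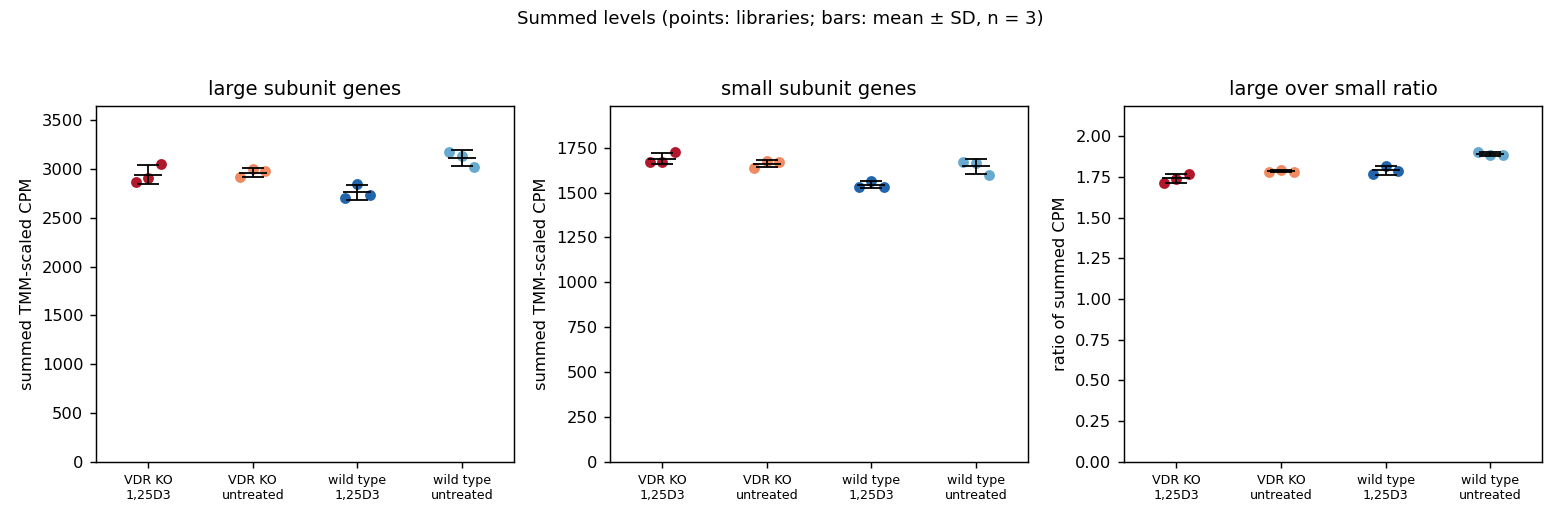
Summed TMM-scaled CPM of the large and of the small subunit genes, and the ratio of the sums (y axes, from 0), by group (x axis). Points are libraries and bars mean ± SD (n = 3); for both sums the treated wild type libraries are the lowest, and the ratio is highest in untreated wild type libraries.

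Between the genotypes the members went both ways. In untreated VDR KO cells 25 rose and 23 fell against untreated wild type cells, where 35.5% of all genes tested rose and 34.2% fell (edgeR, adjusted p below 0.05). The members' shares were 32.5% and 29.9%, close to those of all genes, and their median log2 fold change was 0.01. In treated cells 36 rose and 23 fell in VDR KO cells, where 38.4% of all genes rose and 37.4% fell, and the median was 0.14 against 0.02 over all genes. With library size alone in place of TMM, which sets the median log2 fold change of all genes at 0.13 in both comparisons, 35 rose (45.5%) and 14 fell (18.2%) in untreated VDR KO cells, where 42.4% of all genes rose and 27.8% fell. In treated VDR KO cells 42 rose (54.5%) and 20 fell (26.0%) with that scaling, where 43.6% of all genes rose and 33.1% fell.

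The comparisons in untreated and in treated cells share no library. In both, 21 members rose and 20 fell, and 12 passed in neither. A further 14 rose in treated cells alone, 3 fell in treated cells alone, 4 rose and 2 fell in untreated cells alone. MRPL21, a large subunit protein, rose in treated VDR KO cells, with 102, 103 and 103 CPM, against 82.9, 83.1 and 82.2 CPM in treated wild type ones (log2 fold change 0.31, adjusted p = 0.000688 by edgeR). Without hormone it was at 90.8, 104 and 96.2 CPM in VDR KO libraries, against 104, 105 and 117 CPM in wild type ones. There the groups overlapped and the lower level passed narrowly (-0.16, adjusted p = 0.0465 by edgeR). It did not pass without untreated wild type replicate 3 (-0.11), and with the GC content trend removed it passed as higher (0.21). Of the 24 members that fell with hormone in wild type cells, 22 were higher in treated VDR KO than in treated wild type cells; these comparisons share the treated wild type libraries.

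The largest rises were in small subunit genes. MRPS28, a small subunit protein, was at 71.5, 76.5 and 71.1 CPM in treated VDR KO libraries, against 26.2, 31.7 and 24.0 CPM in treated wild type ones (log2 fold change 1.42 ± 0.11, adjusted p = 4.11e-09 by edgeR). Without hormone it was at 64.99, 61.1 and 65.2 CPM in VDR KO libraries, against 28.3, 28.1 and 36.9 CPM in wild type ones (1.03 ± 0.11, adjusted p = 2.55e-07 by edgeR). In neither condition did a VDR KO library overlap a wild type one. MRPS14, which has a bacterial counterpart in the head of the small subunit, was at 47.4, 49.0 and 45.6 CPM in treated VDR KO libraries, against 20.5, 18.1 and 17.7 CPM in treated wild type ones (1.33 ± 0.10, adjusted p = 4.73e-09 by edgeR). Without hormone it was at 44.6, 40.8 and 45.3 CPM in VDR KO libraries, against 22.1, 17.5 and 23.7 CPM in wild type ones (1.05 ± 0.10, adjusted p = 1.3e-07 by edgeR). Its groups were likewise apart in both conditions.

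MRPS22, a mitochondria-specific protein in which mutations cause mitochondrial disease, was at 66.3, 62.1 and 67.6 CPM in treated VDR KO libraries, against 29.3, 35.4 and 30.9 CPM in treated wild type ones (1.04 ± 0.09, adjusted p = 2.68e-08 by edgeR). In untreated cells its log2 fold change was 0.60 ± 0.09. MRPL35 (0.79 ± 0.12), MRPS31 (0.64 ± 0.09) and MRPL50 (0.58 ± 0.09) had the next largest rises in untreated VDR KO cells. MRPL35 has a bacterial counterpart and the others are specific to mitochondria; MRPS31 also has pseudogene copies with which it may share reads. In treated cells, MRPL13 (1.32 ± 0.10), MRPL47 (1.23 ± 0.08) and MRPS27 (1.09 ± 0.10) were among the largest rises, and these are members that fell with hormone in wild type cells. Among the S18 homologues, MRPS18C was higher in VDR KO cells with hormone (0.98 ± 0.07) and without (0.45 ± 0.07), the second of which did not pass with the GC content trend removed (0.11). MRPS18A and MRPS18B were higher with hormone (0.58 and 0.59) and did not pass without.

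The largest falls were also in small subunit genes. MRPS26, the member with the highest level per kb, was at 63.3, 60.8 and 65.3 CPM in treated VDR KO libraries, against 141, 130.1 and 147 CPM in treated wild type ones (-1.14 ± 0.08, adjusted p = 2.36e-09 by edgeR). Without hormone it was at 66.7, 70.1 and 70.7 CPM in VDR KO libraries, against 128, 136 and 107 CPM in wild type ones (-0.84 ± 0.08, adjusted p = 1.29e-07 by edgeR). Every VDR KO library lay below every wild type one. MRPS34, in which mutations cause Leigh syndrome, was at 38.5, 34.9 and 42.5 CPM in treated VDR KO libraries, against 80.7, 89.9 and 88.2 CPM in treated wild type ones (-1.16 ± 0.13, adjusted p = 8.28e-07 by edgeR). In untreated cells it was at 46.4, 45.6 and 48.1 CPM in VDR KO libraries, against 85.8, 84.8 and 56.4 CPM in wild type ones, where replicate 3 was the lowest (-0.69 ± 0.13, and -0.87 ± 0.08 without that library). MRPS2, a small subunit protein with a bacterial counterpart, was at 53.5, 46.9 and 57.3 CPM in treated VDR KO libraries, against 117, 112 and 113 CPM in treated wild type ones (-1.12 ± 0.11, adjusted p = 1.52e-07 by edgeR). Its groups were apart, as they were without hormone, where the log2 fold change was -0.80 ± 0.11.

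Among large subunit genes, MRPL4 was at 90.4, 88.2 and 97.2 CPM in treated VDR KO libraries, against 177, 185 and 175 CPM in treated wild type ones (-0.96 ± 0.07, adjusted p = 3.88e-09 by edgeR), with no overlap. MRPL34 (-0.84 ± 0.10) and MRPL24 (-0.80 ± 0.09) followed in treated cells. In untreated cells MRPL23 was at 119, 126 and 125 CPM in VDR KO libraries, against 211, 214 and 209 CPM in wild type ones, a gap many times the spread (-0.78 ± 0.09, adjusted p = 5.65e-07 by edgeR). MRPL23 and MRPL24 have bacterial counterparts at the exit of the peptide tunnel. MRPL4 fell in untreated VDR KO cells as well (-0.75 ± 0.07), as did MRPS24 (-0.55 ± 0.13), whose locus is also covered by a readthrough gene. MRPL12 was lower in VDR KO cells without hormone (-0.55 ± 0.07) and with it (-0.45 ± 0.07), but its reads cannot be told from those of SLC25A10. With the GC content trend removed it turned to 0.43 with hormone, which passed, and to 0.04 without, which did not.

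**Figure D4:**
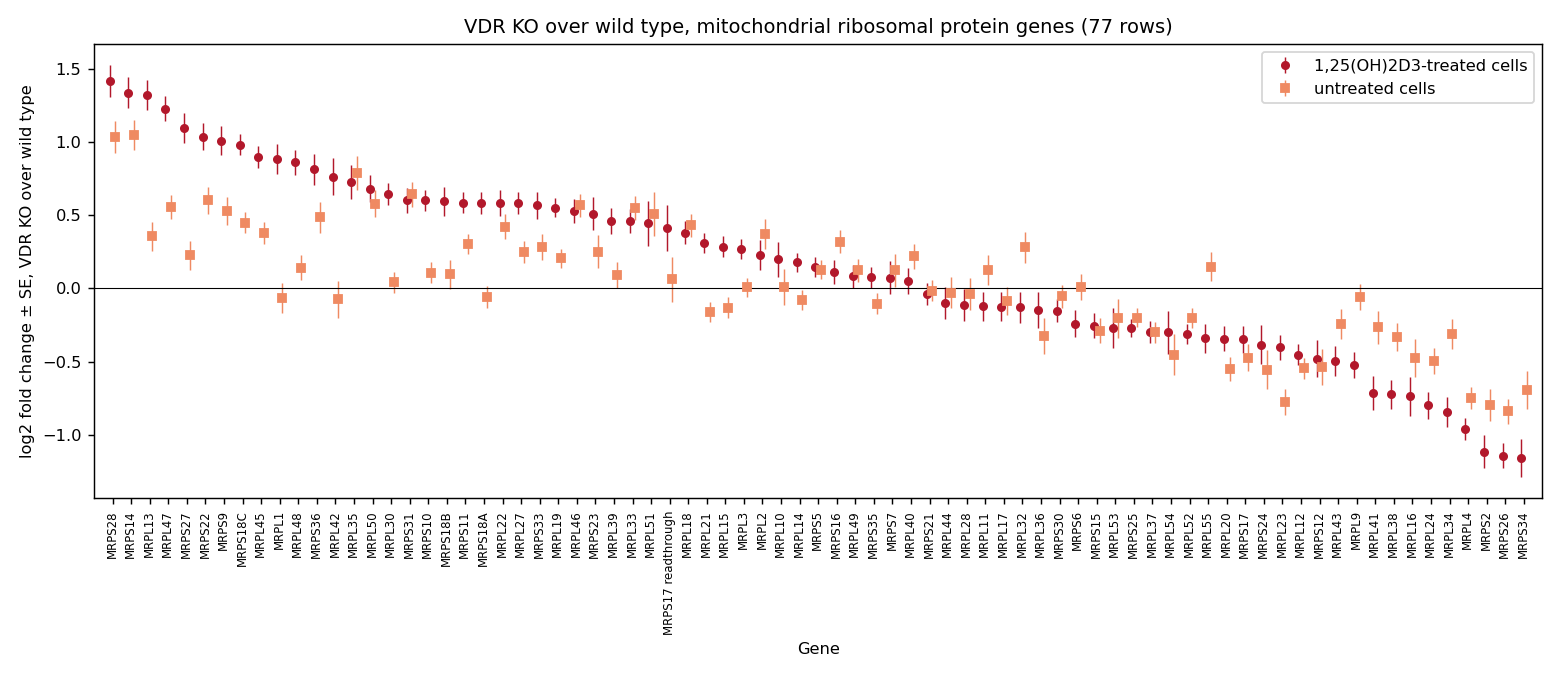
Log2 fold change ± SE, VDR KO over wild type (y axis), of each of the 77 rows (x axis), in treated (circles) and untreated (squares) cells. Genes are ordered by the value in treated cells; MRPS28 and MRPS14 stand highest and MRPS34, MRPS26 and MRPS2 lowest, and for most of the upper genes the circle lies above the square.

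GC content moved with these differences. The 24 members that rose in untreated VDR KO cells and had a value had a median transcript GC content of 40.4%, the 23 that fell 58.4%, and the 28 that did not pass 47.1%. Across 75 members, Spearman's rho between GC content and the log2 fold change was -0.71 in treated and -0.66 in untreated cells, against -0.49 and -0.39 across all genes with a value. Members with a longer span also tended to be higher in VDR KO cells, with a rho of 0.59 in treated and 0.41 in untreated cells, against 0.21 and 0.06 across all genes with a value. For the hormone in wild type cells rho with GC content was 0.41, and the fallen members had a median of 43.2%, against 49.8% for those that did not pass.

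All genes with a value were split by GC content into 3 bins of equal size. With hormone in wild type cells, 13 of 26 members in the lowest bin fell, where 18.0% of all its genes did. In the middle bin 5 of 27 fell, where 14.7% of all its genes did, and in the highest 5 of 22, where 6.01% did. With each library's trend in GC content removed, 24 members fell and 1, MRPS6, rose with hormone in wild type cells, where 13.3% of all genes fell and 11.9% rose. The log2 fold changes of the 6 largest fallers were then between -0.65 and -0.43, and all 6 passed.

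The genotype differences shrank with that trend removed, while the counts moved less. In untreated VDR KO cells 23 members then rose (29.9%) and 22 fell (28.6%), where 32.4% of all genes rose and 34.9% fell. In treated ones 31 rose (40.3%) and 19 fell (24.7%), where 33.8% rose and 38.4% fell. In treated cells MRPS28 then had a log2 fold change of 1.07, MRPS14 0.87, MRPL13 0.65, MRPS26 -0.33, MRPS34 -0.28 and MRPS2 -0.44. MRPL4 no longer passed in treated cells (-0.06), nor did MRPL50 (0.13) and MRPS34 (-0.09) in untreated cells. Whether the GC trend comes from the cells or from the libraries was not tested.

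**Figure D5:**
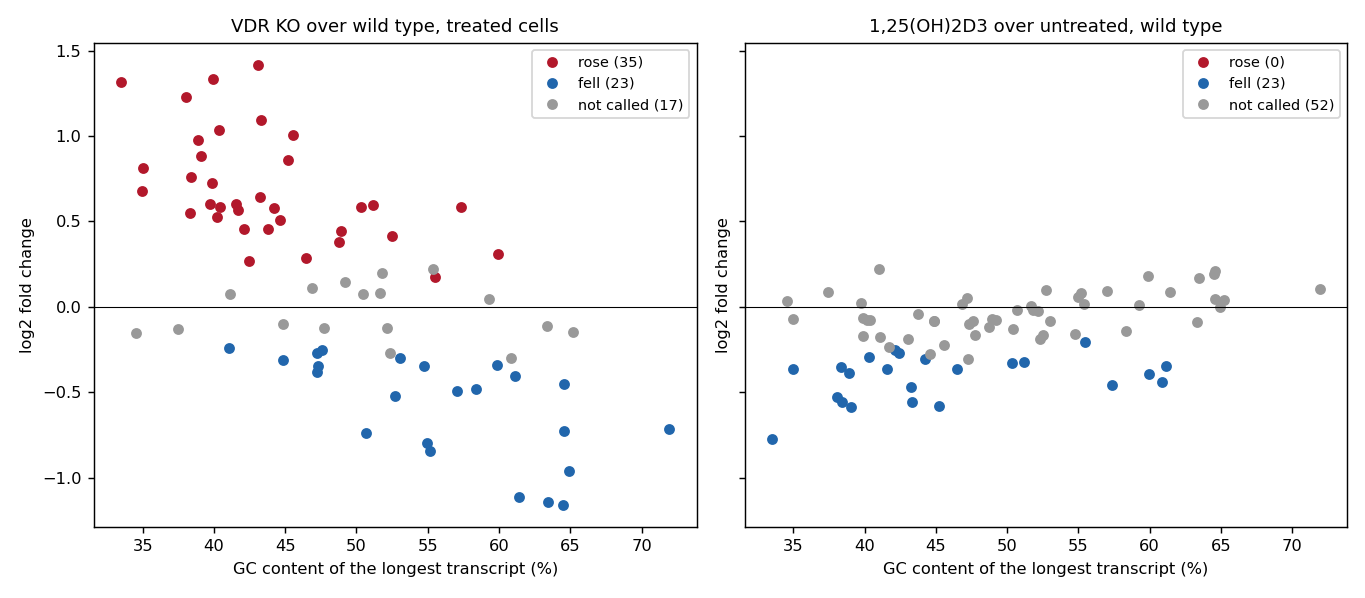
Log2 fold change (y axis) against the GC content of the longest annotated transcript (x axis, %), 1 point per member with a value (75 members), for VDR KO over wild type in treated cells (left) and hormone over untreated in wild type cells (right). On the left, members that rose (35) lie mostly at low and those that fell (23) mostly at high GC content; on the right, the 23 that fell have a median of 43.2%.

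Other genes of mitochondrial translation were read from lists kept beside the members. Their counts stand against 11.5% of all genes that rose and 13% that fell with hormone in wild type cells. In treated VDR KO cells, against treated wild type ones, 38.4% of all genes rose and 37.4% fell. In untreated VDR KO cells, against untreated wild type ones, 35.5% rose and 34.2% fell. With hormone in VDR KO cells 0.913% of all genes rose and 1.64% fell. No list was tested as a whole. Among 7 mitochondrial ribosomal proteins with other names, 2 fell and 0 rose with hormone in wild type cells. They were PTCD3, a pentatricopeptide repeat protein of the small subunit (-0.45 ± 0.09), and DAP3, its GTP-binding protein (-0.24 ± 0.07). In treated VDR KO cells PTCD3 (0.80 ± 0.09) and DAP3 (0.37 ± 0.07) rose against treated wild type cells, while GADD45GIP1 fell (-0.54 ± 0.10), and of the 7, 2 rose and 3 fell.

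Of 23 genes of mitoribosome assembly, 1 rose and 4 fell with hormone in wild type cells, among them GTPBP10, a GTPase that matures the large subunit (-0.50 ± 0.10), and YBEY, an endoribonuclease (-0.46 ± 0.09). GTPBP10 rose in treated VDR KO cells (1.23 ± 0.10), where 8 of the list rose and 6 fell. Of 18 translation factors, 2 rose and 4 fell with hormone in wild type cells. MRRF, which recycles ribosomes, fell (-0.31 ± 0.07), and TUFM, the elongation factor that brings in transfer RNA, rose (0.39 ± 0.09). In treated VDR KO cells TUFM fell (-1.17 ± 0.09), and SLIRP, which stabilises mitochondrial messenger RNA, rose (1.21 ± 0.09), with 12 of the list higher and 4 lower. Of 21 genes that charge mitochondrial transfer RNA, 1 rose and 5 fell with hormone in wild type cells, with the leucyl enzyme LARS2 lowest (-0.68 ± 0.12). In treated VDR KO cells 11 of these rose and 2 fell.

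Of 9 genes that copy and transcribe the mitochondrial genome, 3 rose and 2 fell with hormone in wild type cells. POLRMT, the mitochondrial RNA polymerase, rose (0.45 ± 0.09), and TFAM, which packs the genome and starts its transcription, fell (-0.42 ± 0.08). POLRMT was lower in VDR KO cells with hormone (-1.71 ± 0.09) and without (-1.16 ± 0.09). Of these 9 genes, 4 rose and 5 fell in treated VDR KO cells, and 4 rose and 4 fell in untreated ones. Of 9 regulators of mitochondrial gene expression, YY1 (0.42 ± 0.09) and PPRC1, a coactivator of the PGC-1 family (0.23 ± 0.07), rose with hormone in wild type cells, and GABPB1, a subunit of GABP, fell (-0.20 ± 0.07). In VDR KO cells PPRC1 was lower with hormone (-1.20 ± 0.07) and without (-0.98 ± 0.07), as was MYC (-1.35 ± 0.12 and -1.25 ± 0.12). Of the 9 regulators, 3 rose and 5 fell in treated VDR KO cells, and 2 rose and 5 fell in untreated ones. With hormone in VDR KO cells, 1 gene of the assembly list and 1 of the transfer RNA list fell, and 0 of the translation factors, of the genome list, of the regulators and of the ribosomal proteins with other names passed.

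Beside the mitochondrial ones, 79 cytosolic ribosomal protein genes gave 32 falls and 0 rises with hormone in wild type cells, with a median log2 fold change of -0.22; the falls are 40.5% of them, against 13% of all genes. In untreated VDR KO cells 58 of them fell (73.4%) and 3 rose (3.80%), with a median of -0.40, where 34.2% of all genes fell and 35.5% rose, while the mitochondrial members had 23 falls and 25 rises. Of 82 respiratory chain subunit genes tested, 18 fell (22.0%) and 1 rose (1.22%) with hormone in wild type cells, and 41 rose (50%) and 18 fell (22.0%) in untreated VDR KO cells. With hormone in VDR KO cells, 1 cytosolic ribosomal protein gene rose (1.27%) and 1 fell (1.27%), and 4 respiratory chain genes fell (4.88%). Of all genes tested, 0.913% rose and 1.64% fell there. The differences between these families were not tested.

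The authors' deposited tables of gene ontology terms hold many of the same symbols. For genes lower with hormone in wild type cells, the authors' deposited table lists 46 of 859 genes under ribosome (the authors' adjusted p = 2.88e-08), 15 of them members. The same table lists 23 of 840 genes under mitochondrial gene expression (the authors' adjusted p = 0.0691), also with 15 members. Of the authors' background genes, 223 of 11430 are under the first term and 153 of 10954 under the second. A further deposited table of the authors covers genes higher in treated VDR KO than in treated wild type cells. It lists 75 of 3915 genes under mitochondrial gene expression (the authors' adjusted p = 0.0315), 33 of them members. Under mitochondrial translation it lists 62 of 3915 (the authors' adjusted p = 0.0892), with the same 33 members. Of the authors' background genes, 153 of 10964 are under the former term and 128 of 10964 under the latter. For genes lower in that comparison, the authors' deposited table lists 218 of 4456 genes under structural molecule activity (the authors' adjusted p = 0.0400). Of the 218, 21 are members, and 459 of 11060 background genes are under that term.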

How the data were processed

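RNA was measured in 12 libraries, grouped by the labels. The authors deposited raw whole-number counts per gene and a table of CPM, each count divided by its library's total and scaled to 1e6. Their ontology tables give, per the file headers, raw and adjusted p-values for each term and other values such as how many listed genes it holds. Of them, 4 were used, and which group was higher in each was settled from the sign of its genes' fold changes. The submitters' processing notes name BWA 0.5.9 and a mouse genome build, but the deposited gene IDs are human. The build, annotation and counter behind the counts are therefore not stated. Positions and GC content come from GENCODE v29 on GRCh38 and promoters from RefSeq on GRCh38.p14.

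The main test was edgeR 4.0.16 in R 4.3.3, with TMM scaling, filterByExpr and a robust quasi-likelihood fit of all 12 libraries. P-values were Benjamini-Hochberg adjusted within each of 5 comparisons, and calls were made below 0.05. The filter kept 14676 genes and set aside 1595. SE was taken as |log2 fold change| over the root of F. CPM of single genes were scaled by TMM. The code was tested on simulated data. Alternatives were other scalings and filters, DESeq2 1.42.0, limma 3.58.1 on log2(deposited CPM + 1), a stricter threshold, the compared groups alone, a replicate block, each library left out, removal of an exon length trend and, chosen after seeing the data, of a GC content trend.

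Named members are, in each comparison, up to 6 each way with the largest change among those called whose groups do not overlap (4 each way by size for the difference of responses), the 3 highest and 3 lowest per kb, the MRPS18 homologues, and members whose counts equal another row. From each other list up to 3 with the smallest adjusted p were eligible. Other genes named were chosen after their values were seen. Members and lists were chosen with earlier results of these data known. Libraries with the same replicate number did not deviate together (correlations of deviations -0.18 to 0.12), and the main fit did not pair them.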

Additional observations from a re-analysis of the deposited data

Results flagged for a closer look

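The hormone response differed between VDR KO and wild type cells, by the direct edgeR test of the difference, for 27 of the 77 rows. It was positive for 28.6% of rows and negative for 6.49%, where 13.8% and 12.5% of all genes tested passed in these directions. Values are differences of log2 fold changes, VDR KO minus wild type. The positive ones among large subunit genes were MRPL13 (0.96), MRPL1 (0.95), MRPL42 (0.84), MRPL48 (0.72), MRPL47 (0.67), MRPS18A (0.64), MRPL30 (0.61), MRPL45 (0.52), MRPL21 (0.47), MRPL15 (0.42), MRPL23 (0.37), MRPL39 (0.37), MRPL19 (0.34), MRPL27 (0.33) and MRPL3 (0.26). Those among small subunit genes were MRPS27 (0.87), MRPS18C (0.53), MRPS18B (0.50), MRPS10 (0.49), MRPS9 (0.48), MRPS22 (0.43) and MRPS11 (0.28). The negative ones were MRPL34 (-0.53), MRPL55 (-0.49), MRPL9 (-0.46), MRPL41 (-0.45) and MRPL38 (-0.39). Of these 27 rows, only MRPL34 and MRPL9 passed for the hormone in VDR KO cells by themselves.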

How the results depend on the processing

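Values were followed for the named members and some others, not for all 77 rows. Many of these members were picked for large changes. Most of their values kept their direction and their side of the threshold. Among those that passed, leaving out 1 library kept the side of the threshold for 600 values and lost it for 48. Under the other alternatives 549 kept it and 33 lost it. The sign turned for 3, all with the GC content trend removed, namely MRPL21 (0.21) and MRPL12 (0.042) in untreated and MRPL12 (0.43) in treated VDR KO cells.

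Leaving out 1 library at a time, 16 to 26 members fell and 0 to 1 rose with hormone in wild type cells. Of all genes, 7.45% to 13.3% fell and 6.83% to 12.3% rose. In VDR KO cells 0 to 13 fell and 0 to 4 rose, where 0.0541% to 9.06% of all genes fell and 0% to 6.93% rose. Between untreated genotypes 23 to 27 rose and 18 to 23 fell, where 32.6% to 36.8% of all genes rose and 31.4% to 35.5% fell. Between treated ones 33 to 37 rose and 20 to 26 fell, where 35.5% to 38.9% of all genes rose and 35.1% to 39.1% fell. For the difference of responses 15 to 26 were positive and 3 to 8 negative, where 9.65% to 15.1% of all genes were positive and 8.92% to 14.1% negative.

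With the GC content trend removed, 1 member rose with hormone in wild type cells and 3 rose in VDR KO cells. Of all 14676 genes tested, 1741 and 215 rose in these fits. At an adjusted p below 0.01, 0 fell in VDR KO cells, and for the difference of responses 13 were positive and 0 negative. How many of all genes passed at that threshold was not counted. In VDR KO cells, 9 fell and 5 rose when only the groups compared were fitted, where 6.55% of all genes fell and 5.79% rose. By DESeq2 2 rose there, where 3.28% of genes with an adjusted p did. With the exon length trend removed, 1 fell in VDR KO cells and 3 differences of responses were negative. Of all 14676 genes tested, 226 fell and 1814 had a negative difference with that trend removed. With library size alone, 14 members fell in untreated VDR KO cells and 8 differences of responses were negative. Of all 14676 genes tested, 4085 fell and 2020 had a negative difference with that scaling. By limma on log2(deposited CPM + 1) these numbers were 13 and 8 for members, and 4044 and 2055 for all 14676 genes. Also with library size alone, the summed level was 6.00% higher in untreated and 15.9% higher in treated VDR KO cells than in wild type cells, against -2.71% and 7.58% with TMM. Without the members whose counts equal another row, the ratio of the subunit sums in untreated VDR KO cells differed by -4.70%, against -5.61% with them. The cause was not tested.

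With the replicate number as a block, 0 members fell in VDR KO cells, 3 differences of responses were negative, and 22 members fell with hormone in wild type cells. For all 14676 genes tested, these numbers were 106, 1699 and 1709. Libraries with the same replicate number did not deviate together, and why these counts are lower than in the main fit was not tested. The lowest count of a member in any library was 82, and each group has 3 libraries.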
